A study of Mus musculus with 9 samples.

Results

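Ly6C low cells of the wounded hindpaw were compared with Ly6C medium cells of the same tissue, with 3 arrays titled Ly6C low against 3 titled Ly6C medium, of 9 arrays in all. The arrays of each side were chosen by their titles, and every gene with a probe set of exactly 1 symbol entered the comparison, 22180 genes in total. The cells came from male C57BL/6J mice aged 8 weeks. The plantar part of the hindpaw was taken 24 h after an incision and made into a suspension of single cells. Cells with CD11b on their surface and no Ly6G were sorted by flow cytometry and split by Ly6C. The labels name neither the mice pooled into a sample nor a batch, and they state that all cells were collected on one day. Nothing in them says that the replicates of a gate were separate animals, and the p-values reflect only how far these samples scatter, possibly for technical reasons alone. The 3 Ly6C high arrays, of the same tissue and time, served in the estimate of spread and are given beside the results.

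Ly6C is a surface protein that is abundant on inflammatory monocytes arriving from the blood and is lost as these cells mature into macrophages. A gate of CD11b-positive cells with little Ly6C can hold matured monocytes, macrophages that lived in the tissue before the wound, dendritic cells and other leukocytes with CD11b. Ly6C medium cells are commonly read as monocytes on the way to macrophages. The arrays measured the summed RNA of each gate, so fewer cells of a type and less RNA per cell cannot be told apart.

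Values are log2 intensities, so a difference of 1 is 2-fold. A gene is called where limma, a linear model with a moderated test for each gene, gave an adjusted p under 0.05 over the 22180 genes. Of these, 427 were called (1.93%), 307 higher in Ly6C low (1.38%) and 120 lower (0.541%). At an unadjusted p under 0.05 there were 3121. All 427 had gates that did not overlap, as had 9.25% of all genes in the higher and 7.58% in the lower direction (16.8% in both). With quantile normalization repeated, the split was 242 higher and 162 lower, which moved the share higher from 71.9% to 59.9%. The median difference of all genes was -0.02. Among called genes the median fold was 2.11 for those higher and 2 for those lower, and 33 were at least 4-fold higher and 7 at least 4-fold lower. The number of calls depended on single arrays, from 119 without medium replicate 3 to 522 without low replicate 3. It was 133 without low replicate 1, 136 without low replicate 2, 164 without medium replicate 1 and 223 without medium replicate 2, and 86 of the 427 genes stayed called in all 9 leave-out fits, in which 1 array at a time was dropped. A call that held is one of those 86; for the others the number of leave-out fits that lost it is given, with the highest adjusted p. Arrays correlated across genes, which are not independent replicates, at 0.983 to 0.989 within Ly6C low, 0.985 to 0.987 within medium and 0.972 to 0.982 between them.

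**Figure D1:**
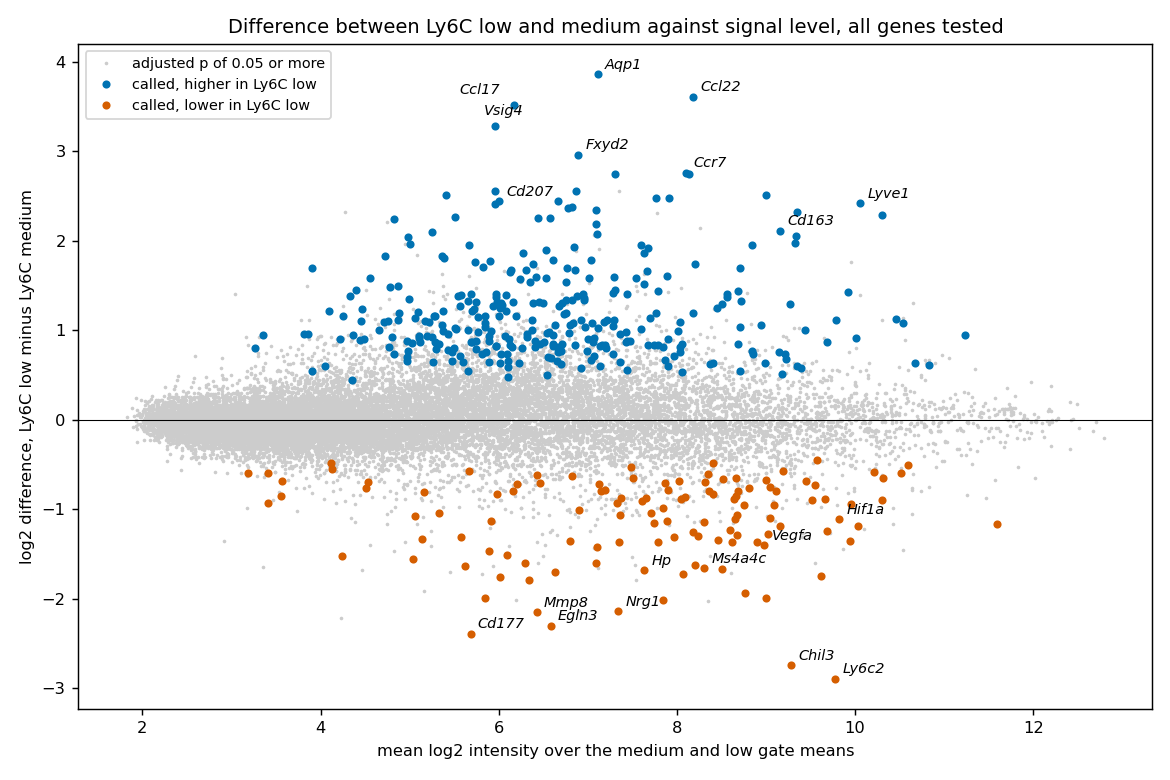
Log2 difference between Ly6C low and medium (vertical axis) against the mean log2 intensity of the gates (horizontal axis) for the 22180 genes tested, 1 point a gene. The 307 blue points are genes called higher in Ly6C low and the 120 orange points those called lower; Aqp1 lies highest at 3.86 and Ly6c2 lowest at -2.89.

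The transcript of the sorted protein followed the gates. Ly6c2, which encodes Ly6C, was at 7.69, 7.90 and 9.40 on the low arrays and at 11.27, 11.20 and 11.20 on the medium arrays. The gates did not overlap, and low replicate 3 stood apart above the other low arrays. The difference was -2.89 (95% interval -3.74 to -2.04, 7.43-fold lower in low, adjusted p = 0.00895), and it held, up to 0.0459 without medium replicate 1. The sort used this protein, so the difference checks the labels and is no finding. Itgam, which encodes the CD11b chain, was bright in both gates (10.58 ± 0.13 in low and 10.90 ± 0.06 in medium, SD, n = 3; adjusted p = 0.229). Ly6g was dim (3.58 ± 0.92 and 3.06 ± 0.51; adjusted p = 0.659), although low replicate 2 reached 4.61. Adgre1, which encodes an adhesion receptor of mature macrophages, was bright and did not pass (10.28 ± 0.26 and 10.10 ± 0.25; difference 0.19, interval -0.26 to 0.63; adjusted p = 0.753). Ly6c1 lay near 2.75 in both gates.

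Aqp1, a channel that lets water cross the cell membrane, had the largest difference of all called genes. It was at 9.04, 9.12 and 8.96 on the low arrays, 5.16, 5.20 and 5.17 on the medium arrays and 6.86, 6.74 and 6.04 on the high arrays. The 3 gates did not overlap, and medium was the lowest of them. The difference between low and medium was 3.86 (SE 0.19, 14.5-fold, adjusted p = 0.000169), and it held, up to 0.00527 without medium replicate 1. Medium lay below high by -1.37 (adjusted p = 0.029). A contrast set the step from medium to low against the step from high to medium, and both steps use the same medium arrays. For Aqp1 this contrast was 5.23 (SE 0.33, adjusted p = 0.00147), and Aqp1 was the single gene it called (1 of 22180, 0.00451%, against 1850 at an unadjusted p under 0.05). It passed in all 9 leave-out fits, up to 0.0416 without medium replicate 1, but not in a test without moderation over genes (0.169). Without low replicate 3, Fam20c, Ly6c2 and Pros1 passed that contrast as well, and without medium replicate 2, Colec12 and Rasgrp3 did, all named because they passed there. Of 11 measured aquaporin genes, the other 10 were not called, with differences of -0.18 to 0.25. Their median with Aqp1 included was 0.07, and 6 of the 11 lay below the array median on every low and medium array.

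**Figure D2:**
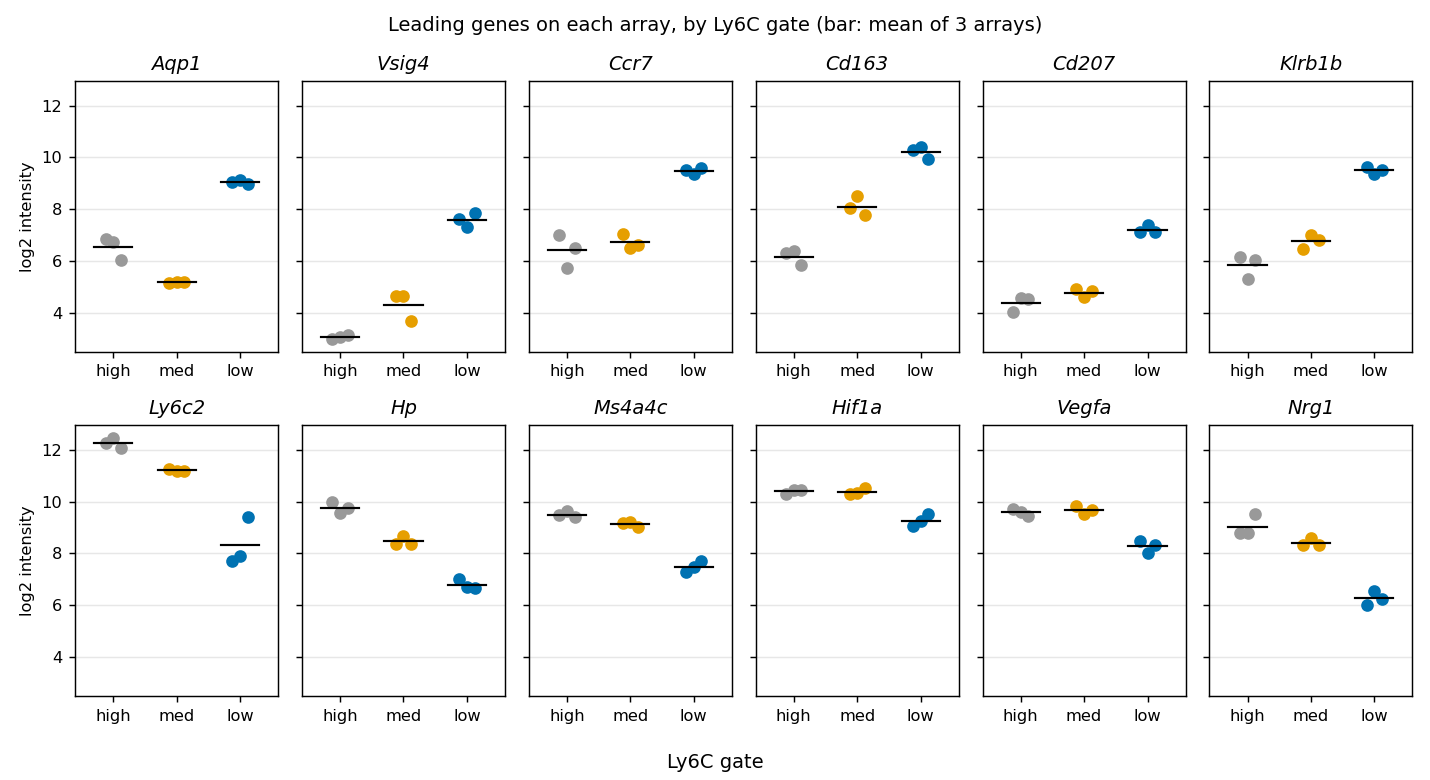
Log2 intensity of 12 genes on each of the 9 arrays, grouped by Ly6C gate, with points for single arrays and bars for the mean of 3. In the top row every low array lies above every medium array, and in the bottom row below; Aqp1 alone in the top row has a medium mean below that of high, at 5.18 against 6.55.

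Of 32 measured genes of tissue macrophages, 12 were called higher in Ly6C low and 0 lower, at a median difference of 1.06, and the other 20 did not pass. Without one array in turn, between 5 and 11 were called higher. This and the other gene lists were drawn up with earlier results of these data known. Their counts and medians therefore describe the lists and are no independent test. Of all 22180 genes, 1.38% were called higher and 0.541% lower, at a median difference of -0.02. Each list count and median is to be read beside these values. How many of all genes lay above or below 0 was not counted. Vsig4, a complement receptor of resident macrophages, was at 7.63, 7.30 and 7.87 on the low arrays and at 4.64, 4.63 and 3.68 on the medium arrays. The lowest low array stood far above the highest medium array, by more than the range within either gate. The difference was 3.28 (interval 2.71 to 3.86, 9.74-fold, adjusted p = 0.00172), and it held. Cd163, the receptor that takes up haptoglobin bound to haemoglobin, was at 10.29, 10.40 and 9.95 in low and 8.04, 8.50 and 7.76 in medium (2.11, 4.32-fold, adjusted p = 0.00414). Its medium arrays in turn lay above those of high (mean 6.17; medium minus high 1.94, adjusted p = 0.0176), so Cd163 stepped up from gate to gate where Aqp1 did not.

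Further members of that list were higher too. Colec12, a scavenger receptor with a collagen stalk, was at 8.79, 8.65 and 8.56 in low against 5.72, 6.50 and 5.55 in medium (2.74, 6.69-fold, adjusted p = 0.00172). Fxyd2, a small regulator of the sodium pump, was at 8.35, 8.24 and 8.53 against 5.95, 5.49 and 4.80 (2.96, 7.77-fold, adjusted p = 0.00499). Both calls held. Lyve1, a hyaluronan receptor, was at 11.33, 11.39 and 11.11 in low and spread from 7.72 to 9.66 in medium (2.42, 5.35-fold, adjusted p = 0.0409). That call was lost in 7 leave-out fits, up to 0.137 without low replicate 1. Timd4, a receptor for the phosphatidylserine of dying cells, was 4.77-fold higher (adjusted p = 0.0189, lost in 3 leave-out fits, up to 0.0781 without low replicate 2). Mrc1, the mannose receptor, was bright in both gates and 1.53-fold higher in low (11.13 ± 0.19 against 10.52 ± 0.02, SD, n = 3; adjusted p = 0.038, lost in 6 leave-out fits, up to 0.125 without low replicate 1).

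Of 25 scavenger and apoptotic cell uptake genes, 7 were called higher and 0 lower, at a median of only 0.12, so a minority of the list accounted for the calls. Beside Colec12, Cd163 and Timd4, they included secreted bridges that tie dying cells to phagocytes. Mfge8, one such bridge, was at 8.90, 8.78 and 9.34 in low and at 7.19, 6.36 and 6.02 in medium (2.48, 5.6-fold, adjusted p = 0.0102), and the call held. Gas6, the ligand of the TAM receptor kinases, was at 10.72, 10.44 and 9.94 against 8.60, 8.80 and 7.55 (2.05, 4.14-fold, adjusted p = 0.0371), a call lost in 6 leave-out fits, up to 0.138 without low replicate 1. Stab1 and Pros1 made up the rest of the 7. The receptors Axl, Mertk and Tyro3, which bind Gas6, were not called, at differences of -0.41, 0.28 and -0.18. They are named here after their values were seen.

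Complement genes had 2 of 17 called higher and 0 lower (median 0.02). Vsig4 was one, and C1qa, a chain of the first complement component, was the other (11.02 ± 0.11 in low, 9.90 ± 0.13 in medium, SD, n = 3; 2.18-fold, adjusted p = 0.0228, lost in 5 leave-out fits, up to 0.0964 without medium replicate 3). In haem and iron handling, 3 of 23 were higher and 1 lower (median -0.02). Cd163 was higher together with Tfrc, the transferrin receptor (2.71-fold, adjusted p = 0.0279, lost in 4 leave-out fits, up to 0.111 without low replicate 1), and Aco1, the iron-sensing aconitase (2.16-fold, adjusted p = 0.0447, lost in 7 leave-out fits, up to 0.157 without low replicate 1). Hp, the haptoglobin that Cd163 takes up when bound to haemoglobin, was the one called lower.

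Of 27 dendritic cell genes, 9 were called higher in Ly6C low and 0 lower, at a median of 0.78, and between 5 and 9 were called without one array in turn. Ccr7, the chemokine receptor that leads dendritic cells to the lymph node, was at 9.50, 9.35 and 9.59 in low, 7.04, 6.49 and 6.63 in medium and 7.0, 5.74 and 6.50 in high. Medium and high overlapped, and low stood apart from both. The difference from medium was 2.76 (interval 2.12 to 3.40, 6.77-fold, adjusted p = 0.00414), and it held. Ccl22 and Ccl17, genes for ligands of the chemokine receptor CCR4, differed by 3.61 and 3.52 (12.2-fold and 11.5-fold). The arrays of Ccl17 were at 6.64, 8.25 and 8.90 in low and 3.83, 5.44 and 3.95 in medium, a wide spread in both gates. Their adjusted p was 0.0189 for Ccl22, lost in 4 leave-out fits (up to 0.0754 without low replicate 2), and 0.0205 for Ccl17, lost without 3 (up to 0.0918 without medium replicate 3).

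Further dendritic cell calls that held included a growth factor receptor, a transcription factor and an integrin. Flt3, the receptor of the growth factor that sustains dendritic cells, was at 6.88, 6.73 and 6.22 in low and 5.0, 4.88 and 4.67 in medium (1.76, 3.38-fold, adjusted p = 0.00417). Irf4, a transcription factor of migratory dendritic cells and of the response to interleukin 4, was at 6.53, 6.98 and 6.42 against 4.63, 4.66 and 4.80 (1.95, 3.85-fold, adjusted p = 0.00417). Itgax, the CD11c chain, was at 7.73, 7.57 and 7.80 against 6.23, 5.89 and 5.95 (1.67, 3.19-fold, adjusted p = 0.00363). For each of the 3 genes high and medium lay close together, with differences between them of -0.13, 0.02 and 0.35 (adjusted p of 0.903, 0.989 and 0.667).

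Some markers of Langerhans cells, the dendritic cells of the epidermis, were called higher too. Cd207, which encodes langerin, was at 7.12, 7.40 and 7.13 in low, 4.90, 4.60 and 4.83 in medium and 4.03, 4.57 and 4.53 in high. The difference from medium was 2.44 (interval 2.07 to 2.82, 5.44-fold, adjusted p = 0.00134), and it held. Cdh1, the E-cadherin that anchors Langerhans cells among keratinocytes, was 2.44-fold higher (6.68 ± 0.16 against 5.39 ± 0.19, SD, n = 3; adjusted p = 0.00417), and its second probe set differed by 0.76. Of 7 Langerhans cell markers, these and Mfge8 were called, at a list median of 0.80 and a list mean of 6.99 to 7.18 on the low arrays against 6.05 to 6.13 on the medium arrays. Cd24a of the same list, named after its values were seen, had a difference of -0.80 and did not pass (adjusted p = 0.206). Keratinocyte markers overlapped between the gates (list mean 4.69 to 4.86 and 4.78 to 4.97) with 0 of 12 called and 1 at an unadjusted p under 0.05.

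H2-DMb2, a chain of the chaperone that loads peptides on MHC class II, was at 8.41, 8.24 and 7.79 in low and 5.96, 5.0 and 5.80 in medium (2.56, 5.89-fold, adjusted p = 0.00499), and it held. It was the single gene called of 13 in the MHC class II list, whose median was 0.42, and its near-identical neighbour H2-DMb1 differed by 0.34. H2-Aa, a chain of the class II molecule itself, was at 11.40 ± 0.03 and 10.71 ± 0.30 (SD, n = 3) and did not pass (difference 0.69, interval 0.19 to 1.18, adjusted p = 0.178). Among 16 costimulation and checkpoint genes, Tnfsf4, the OX40 ligand, was called alone (2.74-fold higher, adjusted p = 0.013, lost without low replicate 1 at 0.0587), and the list median was 0.10. Tnfsf4 was dim, at 5.19, 4.86 and 5.32 in low and 3.33, 3.65 and 4.03 in medium. Each medium value lay below the median of its array.

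Markers of alternative activation, a macrophage state driven by interleukin 4, went both ways. Of 20 genes, 5 were called higher and 1 lower (median 0.54), and the 5 were Ccl17, Ccl22, Irf4, Cd163 and Mrc1, which the dendritic cell and macrophage lists already hold. Chil3, a chitinase-like protein that monocytes also make, was the one called lower. Arg1, the arginase of this state, was at 9.24, 10.02 and 10.29 in low and 10.99, 11.12 and 10.91 in medium. The gates did not overlap, yet the difference of -1.16 missed the threshold (adjusted p = 0.0524). Arg1 was called under 6 of 11 other settings and in 1 leave-out fit. Retnla, a secreted resistin-like protein, varied from 4.14 to 8.95 in medium and from 7.97 to 9.89 in low, so its difference of 2.31 did not pass (interval -0.17 to 4.79, adjusted p = 0.397).

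The classical monocyte list had 8 genes called lower in Ly6C low and 0 higher of 18 measured, at a median of -1.04, with 4 to 9 called lower without one array in turn. Ly6c2 is one of them, so the sort set part of this count. Hp was at 7.0, 6.69 and 6.67 in low, 8.38, 8.69 and 8.35 in medium and 9.98, 9.58 and 9.75 in high. The 3 gates were ordered without overlap, and both steps passed, with -1.68 from medium to low (3.21-fold lower, adjusted p = 0.00245) and -1.30 from high to medium (adjusted p = 0.0176). Ms4a4c, a membrane protein of the MS4A family, was at 7.27, 7.46 and 7.70 in low and 9.18, 9.21 and 9.02 in medium (-1.66, 3.16-fold lower, adjusted p = 0.00172). Both calls held. Ccr2, the receptor by which monocytes leave the marrow, had a smaller difference (9.35 ± 0.06 in low, 9.80 ± 0.03 in medium, SD, n = 3; 1.37-fold lower, adjusted p = 0.0384), and its call was lost in all 9 leave-out fits (up to 0.123 without low replicate 1).

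Chil3, Cd177 and Mmp8 had larger differences than Hp and Ms4a4c, with a wider spread in the low gate. Chil3 was at 7.03, 7.53 and 9.16 in low and 10.64, 10.39 and 10.92 in medium (-2.74, 6.69-fold lower, adjusted p = 0.0217, lost in 5 leave-out fits, up to 0.0929 without medium replicate 3). Cd177, a surface glycoprotein best known from neutrophils, was at 4.23, 3.88 and 5.37 against 7.01, 6.36 and 7.28 (-2.39, 5.24-fold lower, adjusted p = 0.0166, lost in 4 leave-out fits, up to 0.0696 without medium replicate 3). Mmp8, a collagenase of granulocytes that the neutrophil and matrix lists hold, was at 5.15, 4.72 and 6.18 against 7.57, 7.31 and 7.62 (-2.15, 4.43-fold lower, adjusted p = 0.0175, lost in 4 leave-out fits, up to 0.0727 without medium replicate 3). In each of these genes, as in Ly6c2, low replicate 3 lay nearest to medium. Ly6c2 on that array moved with them, and its part in these values was not tested. Without low replicate 3 the classical monocyte list had 9 called lower, at a median of -1.19.

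Genes of nonclassical monocytes, which patrol vessels and carry little Ly6C, showed no common direction. Of 13, 2 were called higher and 1 lower, at a median of 0.01. Cx3cr1, the fractalkine receptor that marks them, was at 8.35, 8.59 and 7.88 in low and 6.82, 7.27 and 7.30 in medium (2.21-fold higher, adjusted p = 0.0342, lost in 6 leave-out fits, up to 0.125 without low replicate 1). Itgax was the other one higher. Apoc2, an activator of lipoprotein lipase, was 3.97-fold lower (7.33, 8.07 and 8.64 against 9.94, 10.26 and 9.81; adjusted p = 0.0169, lost in 4 leave-out fits, up to 0.0644 without low replicate 2). Apoc1, next to it among the genes tested in RefSeq's order, was lower as well. It was at 5.43, 4.96 and 5.0 in low and 6.96, 7.15 and 6.57 in medium (-1.76, 3.39-fold, adjusted p = 0.00417), and its call held.

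**Figure D3:**
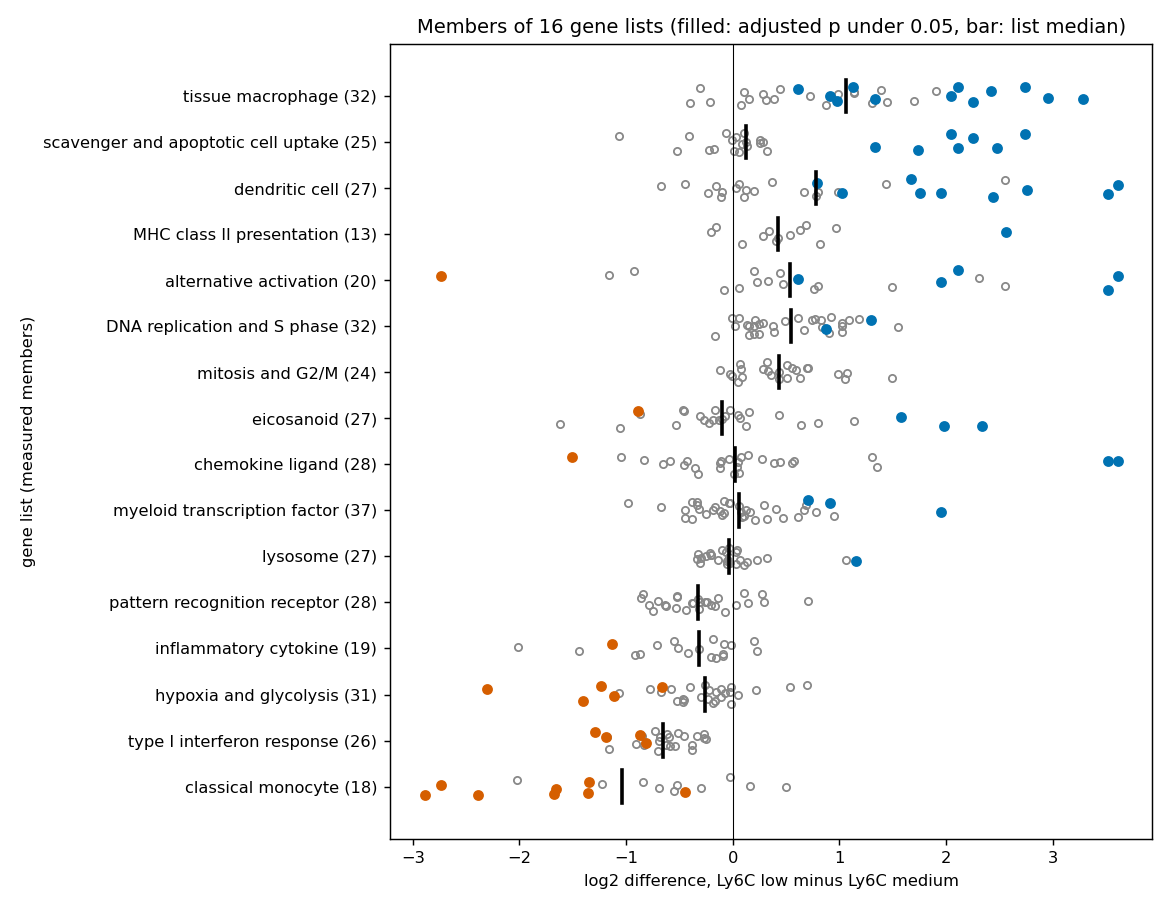
Log2 difference between Ly6C low and medium for the measured members of 16 gene lists, 1 point a gene, with filled points for called genes (blue higher, orange lower in low), open points for the others and a bar at the list median. Medians run from 1.06 for tissue macrophage genes to -1.04 for classical monocyte genes, beside -0.02 for all genes.

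A minority of hypoxia genes was called lower in Ly6C low. Under low oxygen the transcription factor HIF-1 binds a short element whose core can read ACGTG. It turns on genes for glycolysis, vessel growth and its own control. Of 31 measured genes of the list, 5 were called lower and 0 higher, 27 of 31 had a difference below 0, and the median was -0.26. Without one array in turn, 2 to 5 were called. Hif1a, the oxygen-regulated chain of the factor, was at 9.05, 9.25 and 9.51 in low, 10.28, 10.32 and 10.53 in medium and 10.30, 10.47 and 10.46 in high. Medium and high overlapped and low lay below both. The difference from medium was -1.11 (interval -1.41 to -0.81, 2.16-fold lower, adjusted p = 0.00664), it held, and a second probe set of the gene differed by -1.31.

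Vegfa, the growth factor of blood vessels and a known target of HIF-1, was at 8.49, 8.02 and 8.31 in low and 9.82, 9.52 and 9.69 in medium (-1.40, interval -1.72 to -1.08, 2.64-fold lower, adjusted p = 0.00414), and it held. Egln3, an oxygen-sensing hydroxylase that marks HIF for decay, was at 5.56, 5.19 and 5.54 in low and at 8.45, 7.68 and 7.08 in medium (-2.30, 4.94-fold lower, adjusted p = 0.0467). Ero1a, an oxidase for disulphide bonds, was 2.36-fold lower (adjusted p = 0.0378), and P4ha1, a collagen prolyl hydroxylase, 1.58-fold lower (adjusted p = 0.0443). These 3 calls were lost in 7, 6 and 7 leave-out fits, up to 0.146 without medium replicate 1 for Egln3 and up to 0.127 and 0.153 without medium replicate 3 for Ero1a and P4ha1. Slc2a1, the glucose transporter GLUT1, was at 10.24 ± 0.18 and 11.03 ± 0.20 (SD, n = 3), without overlap, and missed the threshold (difference -0.78, adjusted p = 0.0554). Slc2a1 was called under 6 of 11 other settings and in 1 leave-out fit, and its second probe set differed by -1.10. The glycolytic enzymes Ldha and Pkm, named after their values were seen, differed by -0.11 and -0.07.

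The upstream sequences of the called hypoxia genes show where ACGTG lies. The form GCGTG was not searched and is left unmarked, though the printed windows of Ero1a and P4ha1 hold it. The 250 bases before each start of a gene in RefSeq (GRCm38.p6) were searched for ACGTG on both strands, so CACGT also counts. They are printed 5′ to 3′ on the gene's strand, ending at the base before the start, with matches in capitals.
Hif1a (chr12:73907617-73907866, plus strand): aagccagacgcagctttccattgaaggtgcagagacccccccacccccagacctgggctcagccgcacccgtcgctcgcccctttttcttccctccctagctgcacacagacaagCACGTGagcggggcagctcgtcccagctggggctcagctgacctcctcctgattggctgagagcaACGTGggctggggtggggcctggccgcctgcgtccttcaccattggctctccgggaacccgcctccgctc
Egln3 (chr12:54203875-54204124, minus strand): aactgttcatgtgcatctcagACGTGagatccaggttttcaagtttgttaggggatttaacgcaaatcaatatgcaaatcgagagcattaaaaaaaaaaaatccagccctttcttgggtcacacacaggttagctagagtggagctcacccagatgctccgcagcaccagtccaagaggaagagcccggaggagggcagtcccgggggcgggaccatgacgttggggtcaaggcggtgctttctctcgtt
Ero1a (chr14:45318573-45318822, minus strand): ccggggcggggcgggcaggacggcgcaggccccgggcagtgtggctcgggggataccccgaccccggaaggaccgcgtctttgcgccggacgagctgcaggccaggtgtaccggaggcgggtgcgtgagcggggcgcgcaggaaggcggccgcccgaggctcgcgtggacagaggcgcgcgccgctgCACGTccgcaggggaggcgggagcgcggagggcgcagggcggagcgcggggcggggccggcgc
P4ha1 (chr10:59323046-59323295, plus strand): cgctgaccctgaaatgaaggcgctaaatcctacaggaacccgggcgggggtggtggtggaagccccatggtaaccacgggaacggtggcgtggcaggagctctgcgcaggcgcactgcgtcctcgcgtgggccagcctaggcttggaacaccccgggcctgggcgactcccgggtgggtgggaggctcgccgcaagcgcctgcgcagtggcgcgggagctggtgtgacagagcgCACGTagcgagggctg
The match nearest the start began 70 bases before it in Hif1a, 229 in Egln3, 63 in Ero1a and 16 in P4ha1. Hif1a held a further pair of overlapping matches, which form the palindrome CACGTG, a sequence that other factors also bind. Vegfa had a match in 1 of its 2 windows, which is not printed here. The first part of that window, which holds the match, reads as protein-coding sequence of Vegfa, so the window lies before a start inside the gene. Counting a gene if any of its windows matched, 5 of 5 called members held ACGTG, Vegfa by that match inside the gene. So did 15 of 24 members that were not called (62.5%), and 3459 of 16990 genes tested that had a window (20.4%). Over all 32851 windows the share was 16.6%. Among all called genes with a window, 28 of 92 lower ones held it (30.4%) and 52 of 250 higher ones (20.8%). A match is a string of letters, and no binding was measured.

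Interferon response genes, which defend cells against viruses, leaned lower in Ly6C low, and most did not pass. All 26 measured members had a difference below 0 (-1.29 to -0.25, median -0.65). Of these, 4 were called lower and 0 higher, with 1 to 5 called without one array in turn, and 15 were lower at an unadjusted p under 0.05. Oas3, a sensor of double-stranded RNA, was at 6.78, 7.03 and 7.01 in low and 7.74, 7.84 and 7.86 in medium (-0.87, 1.83-fold lower, adjusted p = 0.00555), and it held. Zbp1, a sensor of Z-form nucleic acid, was 2.44-fold lower (adjusted p = 0.013, lost without medium replicates 1 and 3 in turn, up to 0.0613). Irf7, the factor that amplifies the response, was at 8.07, 8.66 and 8.95 against 9.78, 9.74 and 9.74 (2.28-fold lower, adjusted p = 0.0316, lost in 6 leave-out fits, up to 0.11 without medium replicate 3). Mx1, a GTPase against influenza virus, was 1.75-fold lower (adjusted p = 0.0227, lost in 5 leave-out fits, up to 0.094 without medium replicate 3).

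Replicate 3 had the highest list mean in each gate for these genes, 7.60 in low against 7.06 and 7.07, and 8.24 in medium against 7.74 and 7.80. The core of the interferon-stimulated response element, GAAA repeated after a gap of 2 bases, was searched in the same windows and on both strands. Of the called members with a window, Oas3 held it, beginning 75 bases before the start, and Irf7 did not.
Oas3 (chr5:120777660-120777909, minus strand): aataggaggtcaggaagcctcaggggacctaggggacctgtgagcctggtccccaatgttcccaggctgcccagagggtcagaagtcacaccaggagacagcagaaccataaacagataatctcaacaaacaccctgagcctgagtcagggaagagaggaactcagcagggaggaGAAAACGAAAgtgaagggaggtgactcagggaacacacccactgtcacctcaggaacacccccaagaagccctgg
It was present in 7 of 16 uncalled members with a window (43.8%), in 577 of 16990 genes tested (3.4%) and in 2.98% of all windows.

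Further lower genes belong to clusters of related genes. Slfn1, a Schlafen protein of quiescent leukocytes, was at 6.41, 6.57 and 7.55 in low and 8.69, 8.76 and 9.10 in medium (-2.01, 4.03-fold lower, adjusted p = 0.00991), and it held. Its neighbour Slfn4 was 3.37-fold lower (adjusted p = 0.0189, lost in 4 leave-out fits, up to 0.0837 without medium replicate 3). Ifi209, a member of the interferon-induced HIN200 family, was 3.3-fold lower (adjusted p = 0.0105, lost without low replicate 1 and medium replicate 3 in turn, up to 0.0537). Klra2, a lectin-like receptor of the Ly49 family, was 3.46-fold lower (adjusted p = 0.0467, lost in 8 leave-out fits, up to 0.164 without low replicate 1). These genes have close copies, and how far their probes read the copies too was not tested.

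Among the remaining genes with large differences, Nrg1, an epidermal growth factor family ligand of the ERBB receptors, was at 6.01, 6.56 and 6.25 in low and 8.32, 8.59 and 8.32 in medium (-2.14, 4.4-fold lower, adjusted p = 0.00414), and it held. Arg2, the mitochondrial arginase, was at 7.16, 7.63 and 8.61 against 9.51, 9.74 and 9.93 (-1.93, 3.81-fold lower, adjusted p = 0.0228). Plcb1, a phospholipase of receptor signalling, was 3.97-fold lower (adjusted p = 0.0158), and Slc22a4, a carrier of ergothioneine, 3.24-fold lower (adjusted p = 0.0179). These 3 calls were lost in 5, 3 and 5 leave-out fits, up to 0.0964, 0.067 and 0.0731. On the higher side, Klrb1b, an inhibitory lectin-like receptor best known from natural killer cells, was at 9.64, 9.38 and 9.51 in low against 6.47, 7.0 and 6.82 in medium (2.74, 6.7-fold, adjusted p = 0.00172). Npl, a lyase that breaks down sialic acid, was at 10.47, 10.15 and 10.11 against 7.76, 8.45 and 7.0 (2.51, 5.69-fold, adjusted p = 0.00888). Chp2, a calcineurin-like calcium-binding protein, and Cldn1, a claudin of tight junctions, differed by 2.55 and 2.51 (5.85-fold and 5.7-fold, adjusted p = 0.00666 and 0.00649). The calls of these 4 higher genes held. Slamf9, a receptor of the SLAM family, was 5.57-fold higher (adjusted p = 0.0144, lost in 3 leave-out fits, up to 0.0626 without low replicate 1).

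Eicosanoid enzymes went both ways. Alox5, the 5-lipoxygenase that starts leukotriene synthesis, was at 10.51, 10.23 and 10.20 in low and 8.94, 8.28 and 7.77 in medium (3.96-fold higher, adjusted p = 0.0463). Hpgds, which makes prostaglandin D2, was 2.99-fold higher (adjusted p = 0.0108), and Hpgd, which inactivates prostaglandins, 5.07-fold higher (adjusted p = 0.0187). The 3 calls were lost in 7, 3 and 2 leave-out fits, up to 0.158, 0.0547 and 0.0825. Pla2g7, which degrades platelet-activating factor, was lower (9.22 ± 0.16 against 10.11 ± 0.04, SD, n = 3; 1.86-fold, adjusted p = 0.0071), and it held. Ptgs2, the inducible prostaglandin synthase, was not called (difference -0.87). The list had 3 of 27 higher and 1 lower, at a median of -0.10.

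Of 19 inflammatory cytokine genes, 1 was called lower (5.26%) and 0 higher, with 0 to 2 lower in the leave-out fits and 5 under a fixed replicate block. Nos2, the inducible nitric oxide synthase, was the one called, at 5.22, 5.03 and 5.79 in low and 6.40, 6.71 and 6.33 in medium (2.2-fold lower, adjusted p = 0.024, lost in 5 leave-out fits, up to 0.0971 without low replicate 1). The list median was -0.32. Il1b was at 11.72 ± 0.19 and 11.92 ± 0.25 (SD, n = 3; difference -0.20, interval -0.59 to 0.18; adjusted p = 0.678), and Tnf at 11.54 ± 0.40 and 11.63 ± 0.42 (difference -0.09, interval -0.79 to 0.61; adjusted p = 0.936). Il10, the cytokine that restrains them, was at 9.74 ± 0.56 and 10.13 ± 0.84 (difference -0.39, interval -1.50 to 0.71; adjusted p = 0.794). For all 3 the arrays of the gates overlapped, and replicate 3 was the highest array in both gates. Between arrays of equal number, low lay below medium each time, though barely for Tnf in replicate 1 (11.33 against 11.34). The list mean did the same, at 6.91, 6.62 and 7.73 in low and 7.35, 7.17 and 8.21 in medium. The labels do not say that equal numbers pair the arrays, so the overlap does not show that the gates were alike. With limma, 0 of 16 anti-inflammatory mediators and 0 of 28 pattern recognition receptors were called, against 2 higher and 2 lower, and 1 higher and 9 lower, at an unadjusted p under 0.05, at medians of -0.08 and -0.32. These counts of 0 depended on the setting. The leave-out fits called up to 3 receptors lower (3 without low replicate 3), and a fixed replicate block called 4. For the mediators the leave-out fits called up to 1 in each direction, and a filter at log2 6 called 2 higher.

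Signals and receptors for cell movement went both ways. Of 28 chemokine ligands, Ccl17 and Ccl22 were higher and Cxcl5, which attracts neutrophils, was lower (2.84-fold, adjusted p = 0.0199, lost in 4 leave-out fits, up to 0.0659 without medium replicate 3), at a median of 0.02. Of 25 chemoattractant and adhesion receptors, 3 were higher, namely Ccr7, Itgax and Cx3cr1, and 4 lower, at a median of -0.07. Fpr2, a formyl peptide receptor, was at 7.19, 7.54 and 8.28 in low and 9.15, 9.48 and 9.39 in medium (3.18-fold lower, adjusted p = 0.0154, lost in 3 leave-out fits, up to 0.0664 without low replicate 2). Itgb7, an integrin chain of gut homing, was 1.83-fold lower (adjusted p = 0.0493, lost in 8 leave-out fits, up to 0.172 without low replicate 1), and Ccr2 and Ccr1 were the rest. Matrix remodelling and growth factor genes had 2 of 30 higher and 3 lower (median -0.02). Pdgfc, a platelet-derived growth factor chain, was 3.23-fold higher and Mmp25, a membrane-bound metalloproteinase, 1.99-fold higher (adjusted p = 0.0481 and 0.0418, lost in 7 and 8 leave-out fits, up to 0.159 and 0.137). Thbs1, thrombospondin, was lower beside Mmp8 and Vegfa (2.23-fold, adjusted p = 0.0147, lost in 3 leave-out fits, up to 0.0652 without medium replicate 3).

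Of 37 transcription factors of myeloid cells, 3 were called higher (8.11%, beside 1.38% of all genes) and 0 lower, at a median of 0.06. Beside Irf4 these were Maf, a factor of resident macrophages (1.88-fold, adjusted p = 0.0443), and Klf2, a factor of quiescence (1.64-fold, adjusted p = 0.0428), and both of these calls were lost in 7 leave-out fits, up to 0.153 and 0.126. Lysosome genes had 1 of 27 called (3.7%, beside 1.93% of all genes), at a median of -0.04. It was the protease Ctsf (2.24-fold higher, adjusted p = 0.0482, lost in 8 leave-out fits, up to 0.155 without low replicate 1).

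Cell division genes varied among the low arrays. Of 32 DNA replication genes, 30 had a difference above 0 (median 0.55). Mcm3, a subunit of the replicative helicase, was called at 7.30, 7.02 and 7.12 in low and 5.82, 5.93 and 5.80 in medium (2.46-fold, adjusted p = 0.0106, lost without low replicate 1 and medium replicate 3 in turn, up to 0.054). Pola1, the catalytic chain of the polymerase that starts new strands, was 1.83-fold higher (adjusted p = 0.0431, lost in 8 leave-out fits, up to 0.153 without medium replicate 3). With limma, 0 of 24 mitosis genes were called, against 11 higher at an unadjusted p under 0.05, at a median of 0.43. The list mean of replication genes was 6.01, 5.86 and 5.42 on the low arrays and 5.10 to 5.24 on the medium arrays, and that of mitosis genes 4.80, 4.92 and 4.45 against 4.20 to 4.37. Low replicate 3 lay nearest to medium in both lists, and without it 9 replication genes and 6 mitosis genes were called higher. Mki67, a marker of dividing cells, was at 7.92, 7.69 and 7.30 in low and 7.18, 6.50 and 7.33 in medium and overlapped (adjusted p = 0.415).

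Of 13 fibroblast markers, 1 was called lower and 0 higher, at a median of -0.55. Their list mean was 4.80 to 4.91 on the low arrays, 5.25 to 5.36 on the medium arrays and 6.87 to 8.15 on the high arrays. Dcn, the matrix proteoglycan decorin, was called (7.35 ± 0.08 against 8.34 ± 0.05, SD, n = 3; 1.99-fold lower, adjusted p = 0.0199, lost in 5 leave-out fits, up to 0.0842 without medium replicate 3). Col1a2, a collagen chain, was at 5.74 ± 0.25 and 7.26 ± 0.45 and missed the threshold (difference -1.52, adjusted p = 0.0835). It was called under 2 of 11 other settings and in 1 leave-out fit, and its second probe set differed by only -0.62. The medians of the monocyte, hypoxia and interferon lists were also below 0, and the part of the fibroblast markers in those results was not tested.

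**Figure D4:**
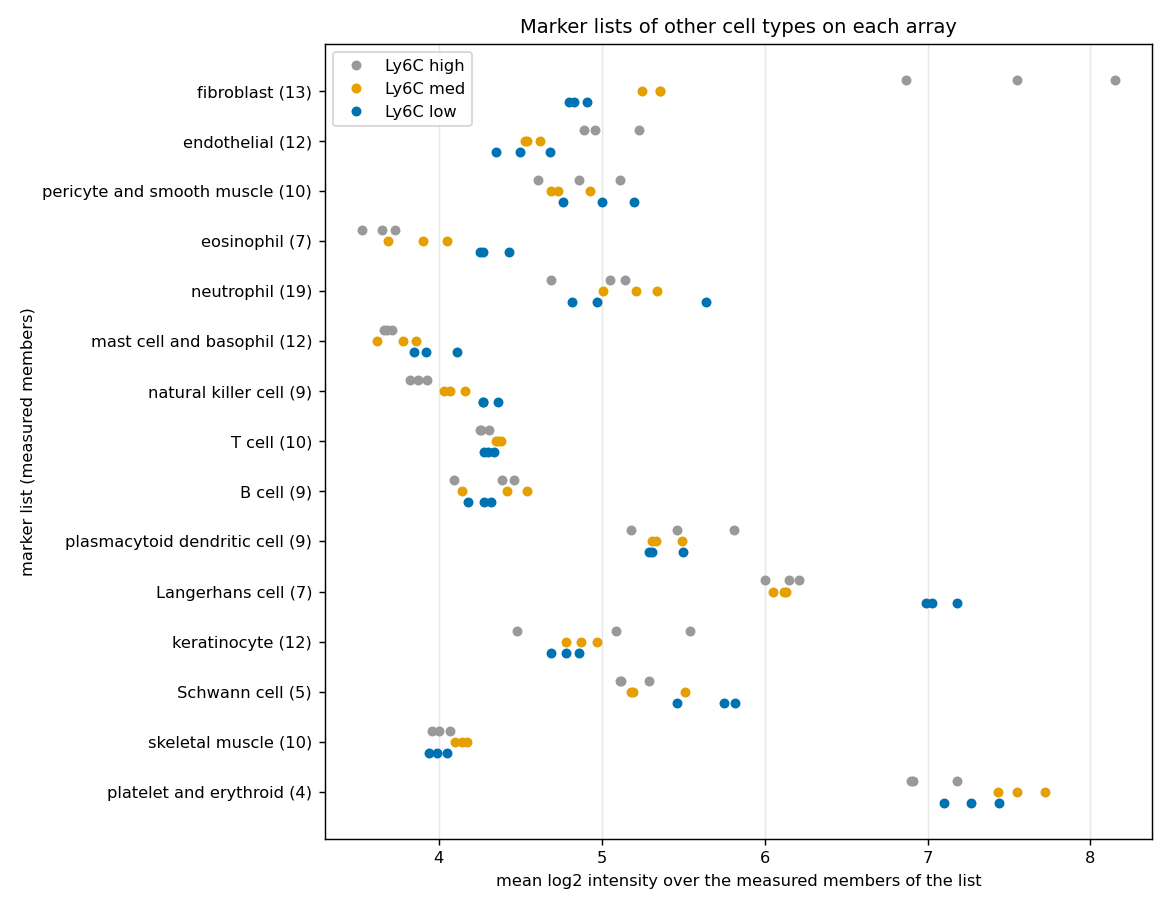
Mean log2 intensity of each marker list of another cell type (horizontal axis) on each of the 9 arrays, coloured by Ly6C gate, with the number of measured members in brackets. Langerhans cell markers are highest on the low arrays (6.99 to 7.18 against 6.05 to 6.13 on the medium arrays), and fibroblast markers lowest there (4.80 to 4.91 against 5.25 to 5.36).

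Of 9 natural killer cell markers, Klrd1, the CD94 chain, was at 8.14, 8.74 and 7.67 in low and 6.48, 6.05 and 5.46 in medium (4.55-fold higher, adjusted p = 0.0227), and Klrk1, the NKG2D chain, was 1.84-fold higher (adjusted p = 0.0264). Their calls were lost in 4 and 6 leave-out fits, up to 0.0867 and 0.0942. The list median was -0.05, its mean was 4.27 to 4.36 in low and 4.03 to 4.16 in medium, and 6 of the 9 lay below the array median on every low and medium array. Kit, the stem cell factor receptor, was the one called of 12 mast cell and basophil markers (5.22, 5.18 and 5.36 in low, 4.0, 4.25 and 4.26 in medium; 2.12-fold higher, adjusted p = 0.00381), and it held. Of these 12, 7 lay below the array median on every low and medium array, and the list mean was 3.85 to 4.11 against 3.62 to 3.86. Cspg4, the proteoglycan NG2, was called of 10 pericyte and smooth muscle markers (5.55 ± 0.05 against 4.65 ± 0.17, SD, n = 3; 1.87-fold higher, adjusted p = 0.00658), and it held, while the list mean overlapped (4.76 to 5.20 and 4.69 to 4.93). Pmp22, a myelin protein that other cells also make, was called of 5 Schwann cell markers (2.69-fold higher, adjusted p = 0.0124, lost in 3 leave-out fits, up to 0.0584 without low replicate 1).

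Eosinophil markers had 0 of 7 called with limma, against 4 higher at an unadjusted p under 0.05, at a median of 0.33. Their list mean was 4.25 to 4.43 in low and 3.69 to 4.05 in medium, while Epx, the eosinophil peroxidase, was at 3.36 ± 0.19 and 3.35 ± 0.03 (SD, n = 3; adjusted p = 0.976). Neutrophil markers had Mmp8 alone called of 19 (median -0.03; list mean 4.82 to 5.64 and 5.01 to 5.34), and S100a8 varied from 7.25 to 10.37 in low and 8.34 to 10.07 in medium (adjusted p = 0.896). With limma, 0 endothelial (of 12), T cell (of 10), B cell (of 9), plasmacytoid dendritic cell (of 9), skeletal muscle (of 10) and platelet and erythroid (of 4) markers were called, against 1, 2, 2, 1, 0 and 1 at an unadjusted p under 0.05. Their medians lay between -0.11 and -0.05. The T cell receptor chain Cd3e stayed near the floor in both gates (2.97 ± 0.15 and 3.09 ± 0.08; adjusted p = 0.747), and the keratin Krt14 was at 6.0 ± 0.22 and 6.77 ± 0.28 (adjusted p = 0.581). Genes switched on while tissue is digested had 1 of 23 called, Egr1 (2.38-fold higher, adjusted p = 0.0299, lost in 5 leave-out fits, up to 0.111 without low replicate 1), at a median of 0.29. The list mean was 9.24 to 9.43 in low and 8.88 to 9.12 in medium, and its part in the results was not tested.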

How the data were processed

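The values are the log2 intensities the authors deposited, 1 column per array. RNA was amplified before biotin labelling, per the labels' protocols, and the values were background corrected, normalized and summarized by RMA, per the submitters' processing notes; its version, settings and annotation build are not given in the sources used here. They were used as deposited. A repeated normalization shifted the balance of higher and lower genes, and which balance is nearer the truth was not tested.

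Of 41345 probe sets, 23521 had 1 symbol, 1814 several and 16010 none in the platform annotation; the last 2 kinds were left out of the main test. Where a gene had several probe sets (1082 genes), the one with the highest mean of all 9 arrays stood for it, and dim genes were kept. R 4.3.3 and limma 3.58.1 (lmFit, eBayes, two-sided) fitted the 9 arrays together with 6 residual degrees of freedom, with Benjamini-Hochberg adjustment over 22180 genes. The precision is limited by how few arrays there are. The procedure was run on simulated data with known differences and independent scatter, which does not test how calls depend on single arrays. The 41 gene lists held 711 genes, of which 652 were measured and 59 not analysed here; 78 stand in several lists. Members and lists were chosen with earlier results of these data known. Named were the genes given with the comparison, the sorted proteins, the 15 largest differences each way among called genes with gates apart (predicted and small RNA genes left out), up to 5 largest called members of each list, and a fixed set. Replicate numbers were not taken to pair the arrays, since the labels do not say that they do. Same-numbered low and medium deviations correlated at 0.1349, 0.0998 and 0.1634, and those of high with low or medium at -0.0166 to 0.3090. These values do not settle whether the arrays are paired. Upstream sequences are from RefSeq.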

Additional observations from a re-analysis of the deposited data

How the results depend on the processing

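The call count was 427, with 307 higher and 120 lower in Ly6C low. Leaving out each array in turn gave 119 to 522 calls, 85 to 347 higher and 30 to 175 lower, and 1 to 4 calls of the contrast of steps. Fitting only the 6 arrays compared gave 211 (158 and 53). A test without moderation gave 33 (24 and 9) and 0 for the contrast of steps (1850 genes stood at an unadjusted p under 0.05 in the moderated fit). An adjusted p under 0.01 left 77 (55 and 22), and a 2-fold minimum 227 (167 and 60). Adjustment over all probe sets, chosen after seeing the data, gave 127 (93 and 34). A filter at log2 6 gave 593 (385 and 208), array weights 601 (406 and 195) and the replicate number as a fixed block 629 (406 and 223). The random replicate block changed no count, and 5 of 9 arrays correlated best with their own number, a hint from the data and not the design. Quantile normalization repeated gave 404 calls, 345 of them among the 427. The cause of these shifts was not tested. Of 78 named called genes, 29 held without each array in turn and 13 under every setting run on single genes. Uncalled genes changed sign without 1 array: Epx ranged from -0.08 to 0.10, S100a8 from -1.17 to 0.39, Tnf from -0.32 to 0.15, Ly6c1 from -0.03 to 0.05 and Il10 from -0.75 to 0.07. Signal over background limits dim genes: 23 genes called higher lay below the array median on all medium arrays, and 8 called lower on all low arrays.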

Other observations

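Called genes were looked up among their neighbours in RefSeq's gene order, used for order only. Of 22116 adjacent measured pairs, 21 had both genes called, 9 with both higher in Ly6C low, 9 with both lower and 3 with opposite directions. Of all genes tested, 1.93% were called, and how many such pairs would arise without clustering was not worked out. The pairs named here were chosen after their values were seen. Sirpb1a, Sirpb1c and Gm5150, receptors and a gene model of the signal-regulatory protein family, lay side by side and were lower by -1.11, -1.55 and -1.62. Ly9 and Slamf7, receptors of the SLAM family, were lower by -1.06 and -0.65, while Slamf9 of the same family was higher by 2.48. Hgsnat, a lysosomal acetyltransferase, and Pomk, a kinase that modifies dystroglycan, were higher by 1.95 and 1.57. Whether probes of related neighbours read each other's transcripts was not tested.

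Probe sets with no entry in the platform annotation gave 26 calls of 16010 (13 higher and 13 lower, 0.162%) when all probe sets were fitted together, against 134 of 23521 with exactly 1 symbol (0.57%) and 3 of 1814 with several (0.165%). They are unnamed here.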
